A study of Mus musculus with 4 samples.

Results

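The genes described here encode the proteins of the cytoplasmic ribosome. They were taken from the deposited small-RNA count table as the protein-coding genes of GENCODE M21 whose symbol is Rpl or Rps followed by a number (kinases of the Rps6k family left out), with Rpsa, Rplp0, Rplp1 and Rplp2. This gave 92 genes, 35 with a small-subunit name and 57 with a large-subunit name, among 55563 genes or unnamed features in the table. Their 511 transcripts comprise 177 annotated as retained-intron, which were kept apart, and 334 others, which were summed per gene. Of the 92 genes, 77 are on a list of the core proteins of the ribosome and 15 are paralogues, retrocopies annotated as coding, or genes that share the name pattern, such as Rps19bp1, which encodes a binding partner of a ribosomal protein.

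The samples are 4 libraries, 1 for each combination of compartment and hairpin label, so no difference below has a replicate. RAW264.7 is a mouse macrophage line. All cells carried an shRNA and received doxycycline at 1 µg/mL, and they expressed either a non-silencing hairpin (shNS) or a hairpin labelled shDis3l2, named for a 3′-to-5′ exoribonuclease. After 3 days the medium was changed to one with vesicle-depleted serum, and 24 h later cells and medium were taken. Vesicles were purified by centrifugation and a sucrose gradient and treated with micrococcal nuclease before RNA extraction, a step the cells did not go through, so compartment, nuclease and extraction cannot be told apart. The labels do not say whether the hairpin lines are clones or pools.

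A ribosome is built from ribosomal RNA and a set of proteins, most of them present in equal number, and the mRNAs of these proteins are among the most abundant of a growing mammalian cell. Many are short, and most begin with an oligopyrimidine tract at the cap that lets the cell switch their translation together when nutrients or mTOR signalling change. Many of the genes also carry small nucleolar RNAs (snoRNAs) in their introns, which are cut from the spliced-out intron and guide modification of ribosomal and other RNAs. Libraries of this kind are made from small RNA, so counts on an mRNA here are of its short fragments and not of whole messages.

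Library totals ranged from 17612856 to 19741041 counts. Protein-coding genes held 5.03% of the counts of cells under shNS and 5.98% under shDis3l2, and 15.5% and 20.6% of those of the vesicles. Because of this shift, values are given as CPM, counts scaled to the library total (the all-counts scale), and where the scale matters also relative to the protein-coding counts of the library (the protein-coding scale). The targeted gene goes against its label: Dis3l2 held 1.38 CPM in the cell library labelled shNS and 717 CPM in the one labelled shDis3l2, and 90.6 and 103 CPM in the vesicle libraries. Counts per transcript do not show where in Dis3l2 the reads fell, so reads of its mRNA and reads of the expressed hairpin, if its sequence matches the gene, cannot be told apart, and the 717 CPM is not given as a level of Dis3l2 mRNA. The label is therefore used below as a name only. Of the macrophage marker list 13 of 13 genes were in the table, summing to 40.0, 38.0, 300.0 and 256 CPM in the same order, while the lists for B, T, epithelial, fibroblast and endothelial cells each summed to at most 3.0 CPM. The erythroid list summed to 0.353, 0.326, 3.67 and 9.82 CPM, and its part in the results was not tested.

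In cells, most counts on ribosomal protein genes lay on transcripts that contain a snoRNA, and in vesicles most lay on the mRNAs. Transcripts whose exons overlap an annotated snoRNA by at least 15 bases held 84.9% and 86.3% of the ribosomal protein counts in cells labelled shNS and shDis3l2, but 4.9% and 2.95% in the vesicles. Transcripts that are neither retained-intron nor overlap a snoRNA held 12% and 11.3% in cells and 89.3% and 91.1% in vesicles. Of the 92 genes, 30 hold 58 annotated snoRNAs. The counts assigned to those snoRNA genes themselves summed to 16866 and 23465 CPM in cells and to 610.4 and 395 CPM in vesicles, 27.6-fold (95% interval 27.1 to 28.2) and 59.4-fold (58.0 to 60.8) lower in vesicles. A read that falls in a snoRNA can be assigned to the snoRNA gene or to a host transcript that contains it, and how the estimated counts were divided between them was not tested.

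**Figure D1:**
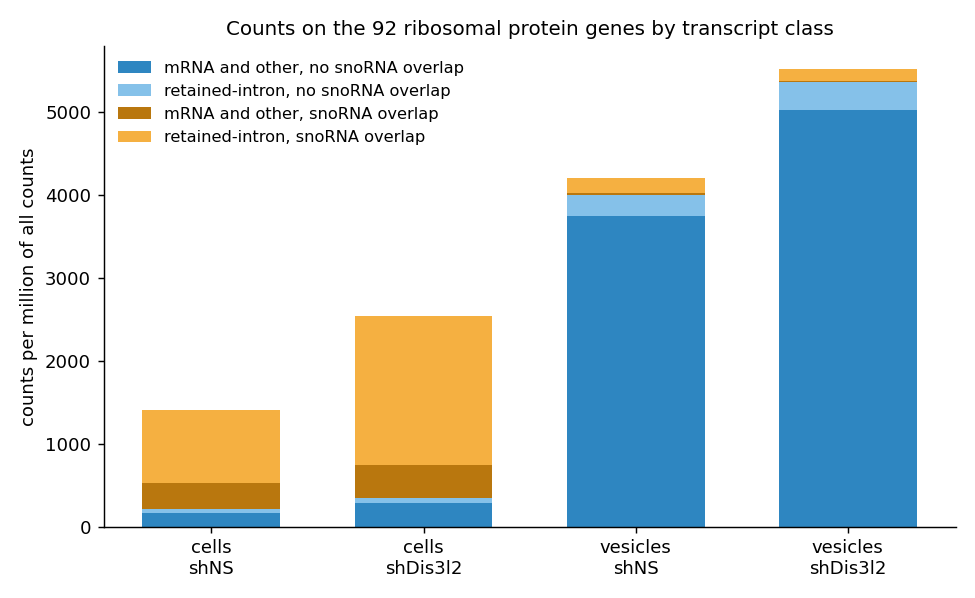
Stacked bars of CPM on the 92 ribosomal protein genes in each of the 4 libraries, split by retained-intron status and by overlap with a snoRNA. The orange parts (snoRNA overlap) make up most of both cell bars, and the dark blue part (mRNA and other transcripts with no snoRNA) makes up 3753 and 5031 of the vesicle bars.

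The snoRNAs behind the most counted of these transcripts are shown because they set what a count on the host gene stands for. Snord68 and Snord14a belong to the box C/D kind, named for a box C near the 5′ end and a box D near the 3′ end. Capitals mark the letters TGATGA (first match) and CTGA (last match), and the snoRNA in Rpl7a does not hold TGATGA. Coordinates are of GRCm38: Snord68 lies at chr8:123103038-123103123 on the plus strand, inside an intron of Rpl13, Snord14a at chr7:116333171-116333257 on the minus strand, inside Rps13, and a snoRNA listed by RefSeq at chr2:26912848-26912915 lies inside Rpl7a and was read in the direction of Rpl7a.
Snord68 in Rpl13: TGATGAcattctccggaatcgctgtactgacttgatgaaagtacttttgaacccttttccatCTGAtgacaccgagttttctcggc
Snord14a in Rps13: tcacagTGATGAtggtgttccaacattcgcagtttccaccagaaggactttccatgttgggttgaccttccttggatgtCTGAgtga
RefSeq snoRNA in Rpl7a: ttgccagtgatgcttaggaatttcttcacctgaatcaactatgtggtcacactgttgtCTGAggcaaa

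The Rpl13 retained-intron transcript that contains all 86 bases of Snord68 held 11072 and 12073 counts in cells under shNS and shDis3l2, and 634 and 618 in vesicles. The Snord68 gene itself was listed at 0 counts in 3 libraries and at 2 in the vesicle library labelled shDis3l2. By contrast the coding Rpl13 transcripts, for a protein of the large subunit, held 6 and 8 counts in cells and 671 and 806 in vesicles. So for this gene the snoRNA-bearing transcript was 16.1-fold lower in vesicles than in cells under shNS (95% interval of the vesicle to cell ratio 0.0573 to 0.0673), while the mRNA was 113-fold higher (55.5 to 332).

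The same contrast within a gene was seen for Rps3 and Rpl4. A retained-intron Rps3 transcript holding Snord15b had 759, 3746, 153 and 102 counts (cells shNS, cells shDis3l2, vesicles shNS, vesicles shDis3l2), and the Rps3 mRNAs, for a protein at the mRNA entry channel of the small subunit, had 2, 6, 1035 and 1356. A retained-intron Rpl4 transcript with a snoRNA had 636, 3758, 182 and 74 counts, against 74, 240, 1303 and 1478 on the other Rpl4 transcripts. In each of these genes the cell libraries were the high ones for the snoRNA-bearing transcript and the vesicle libraries for the mRNA, with no overlap between compartments.

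Retained-intron transcripts of the 92 genes together held 918, 1867, 419 and 476 CPM. Those that overlap a snoRNA were 2.06-fold higher in cells labelled shDis3l2 than in cells labelled shNS (95% interval 2.03 to 2.1) and lower in vesicles labelled shDis3l2 (ratio 0.835, 0.792 to 0.88). Those without a snoRNA, 43.7, 62.1, 245 and 331 CPM, were 5.6-fold (5.2 to 6.03) and 5.33-fold (5.0 to 5.68) higher in vesicles than in cells. These intervals, and all below, are exact and cover counting error only.

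Summed over the 92 genes without retained-intron transcripts, ribosomal protein counts were 487 and 677 CPM in cells labelled shNS and shDis3l2 and 3784 and 5048 CPM in the vesicles. The vesicle to cell ratio was 7.77 (7.61 to 7.94) under shNS and 7.45 (7.31 to 7.59) under shDis3l2. Without the 6 of these transcripts that overlap a snoRNA, a choice made after seeing the data, the sums were 168, 287, 3753 and 5031 CPM, and the ratio was 22.4 (21.6 to 23.2) and 17.5 (17.1 to 18.0). These transcripts held 0.334% and 0.48% of protein-coding counts in cells, against 2.42% and 2.45% in vesicles, a ratio of 7.25 (7.0 to 7.51) and 5.1 (4.96 to 5.24). With snoRNA- and miRNA-overlapping transcripts left out of the scale too, the shares were 0.414% and 0.553% in cells, against 2.49% and 2.5% in vesicles. Small-subunit genes (72.3, 114, 1480 and 1882 CPM) and large-subunit genes (95.5, 172, 2273 and 3149 CPM) both showed the excess in vesicles, with vesicle to cell ratios of 20.5 (19.4 to 21.6) and 23.8 (22.7 to 24.9) under shNS on the all-counts scale.

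A gene was called apart between 2 libraries when its CPM differed at least 2-fold and the 95% interval of the ratio excluded 1, among genes with at least 100 counts over both libraries. Under shNS 74 of the 78 ribosomal protein genes with enough counts were higher in vesicles and 1 was lower, where 77.2% and 13.7% of all 6053 genes tested, and 85.8% and 5.88% of protein-coding genes, were. Under shDis3l2 it was 78 higher and 2 lower of 81, where 79.5% and 13% of all genes tested, and 88.1% and 5.32% of protein-coding genes, were. On this scale the share is thus little above that of protein-coding genes at large. On the protein-coding scale, 70 of 78 and 66 of 81 were higher, where 47.3% and 49.6% of protein-coding genes were. Since most of the genes passed the minimum through their vesicle counts, the direction was also counted over all 92 with no minimum: 86 were higher in vesicles under shNS and 87 under shDis3l2, against 70.3% and 70.8% of protein-coding genes with any count. On the protein-coding scale these became 82 and 78 of 92, against 47.2% and 47.3%.

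A model with compartment and label as additive terms over the 4 libraries, with 1 residual degree of freedom, used TMM or DESeq2 scaling and so set each gene against the others. It took genes with at least 100 counts over the 4 libraries, a minimum that most ribosomal protein genes reached through their vesicle counts. The shares beside its counts are of genes of all types, small RNAs among them, and were not counted for protein-coding genes alone. Among 81 ribosomal protein genes at an adjusted p under 0.05, edgeR's quasi-likelihood test called 48 higher and 4 lower in vesicles, where 12.7% and 19.7% of all 9771 genes were. DESeq2 called 48 higher and 3 lower, where 10.6% and 17.9% were. For the label edgeR called 0 ribosomal protein genes in either direction, where 0% and 0% of all genes were, and DESeq2 called 0, where 0.0512% were higher and 0.154% lower. At an unadjusted p under 0.05 the count for the label was also 0 of 81 with both tools, where 2.25% of all genes were higher and 1.98% lower with edgeR, and 1.45% and 1.21% with DESeq2, so a count of 0 is near the share of all genes. Comparisons of compartments and of labels use the same 4 libraries, so they are not independent of each other.

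The median ribosomal protein gene stood at 1.48 and 2.74 CPM in cells labelled shNS and shDis3l2 and at 32.8 and 42.4 CPM in vesicles. In cells 7 and 3 of the 92 genes were at 0 counts, and in each vesicle library 3 were, where 0 counts allow a level of up to 0.152, 0.163, 0.165 and 0.17 CPM in the 4 libraries. Only 10 and 15 genes reached 100 counts in cells, against 76 and 79 in vesicles, so single-gene ratios that involve cells have wide intervals.

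**Figure D2:**
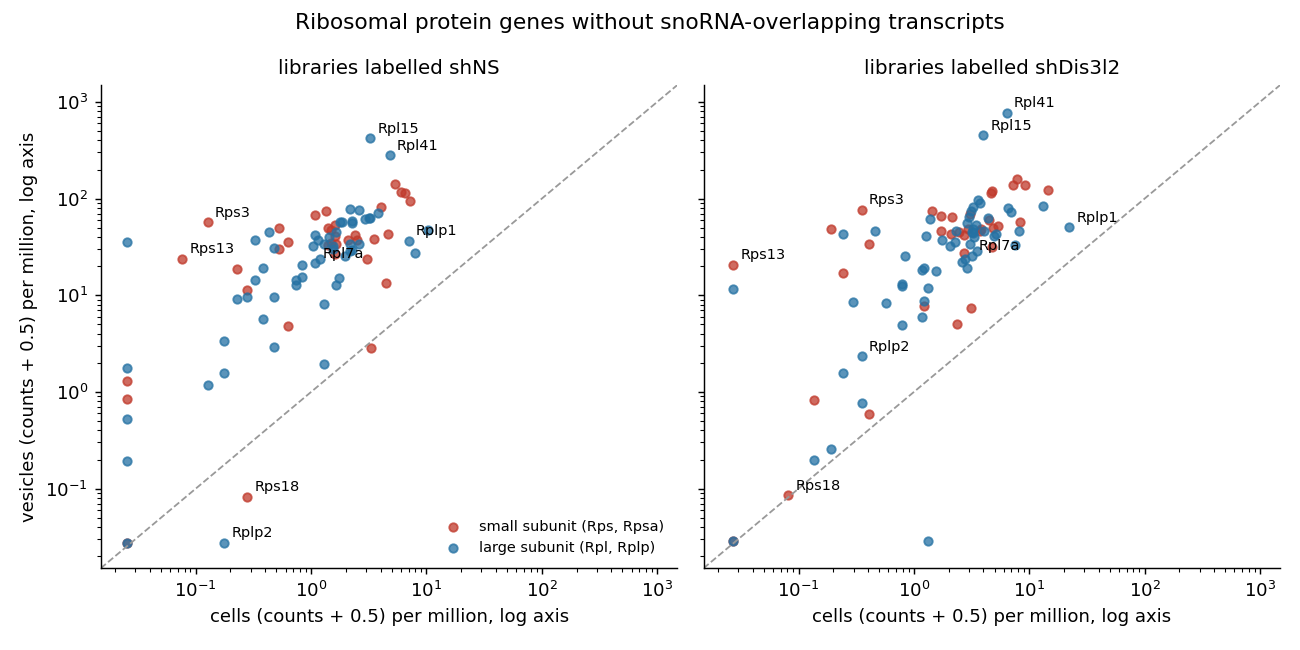
Each point is 1 of the 92 ribosomal protein genes, with snoRNA-overlapping and retained-intron transcripts left out; the horizontal axis is the level in cells and the vertical axis the level in vesicles, as CPM after adding 0.5 counts, on log axes, for the libraries labelled shNS (left) and shDis3l2 (right). Nearly all points lie above the dashed line of equal level, with Rpl15 and Rpl41 highest in vesicles.

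Among small-subunit genes, Rps3 had the largest vesicle to cell ratio under shNS, 449 (155 to 4640), on 2 counts in cells, and it was 248 (108 to 645) under shDis3l2. Its vesicle libraries, at 56.9 and 77.0 CPM, were far above its cell libraries, at 0.127 and 0.311 CPM.

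The small-subunit genes with the highest levels per kb had smaller ratios with narrower intervals. Rps6, whose protein is the classical substrate of S6 kinase, stood at 6.05, 7.23, 117 and 137 CPM, 19.3-fold (16.1 to 23.5) and 18.9-fold (15.9 to 22.7) higher in vesicles. Rps19, a gene mutated in Diamond-Blackfan anaemia, stood at 4.01, 4.63, 81.2 and 115 CPM, a ratio of 20.2 (16.2 to 25.8) and 24.8 (20.0 to 31.3). Rps27a, which encodes ubiquitin fused to a ribosomal protein, stood at 5.26, 7.86, 140.2 and 161 CPM, a ratio of 26.7 (21.9 to 32.7) and 20.4 (17.3 to 24.3). Rps29, a small zinc-binding protein, stood at 1.09, 1.41, 67.3 and 74.7 CPM, a ratio of 61.8 (41.2 to 103) and 52.8 (35.9 to 81.3). In these 4 genes the 2 libraries of a compartment lay close to each other and far from the other compartment.

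Rps27, another zinc-binding protein, stood at 7.21, 14.5, 94.0 and 124 CPM, a vesicle to cell ratio of 13.1 (11 to 15.6) under shNS and 8.53 (7.51 to 9.73) under shDis3l2. Rps28 stood at 1.31, 4.73, 74.5 and 120.1 CPM, a ratio of 56.8 (38.4 to 86.9) and 25.4 (20.5 to 31.9). In both genes the cell library labelled shDis3l2 was the higher of the 2 cell libraries, and the ratio was smaller under that label.

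Of the large-subunit genes, Rpl15 and Rpl41 stood apart in vesicles. Rpl15, a protein that binds the large ribosomal RNA, had 64 and 73 counts in cells and 7650 and 7982 in vesicles, that is 3.24, 3.98, 421 and 453 CPM. It was 130-fold (101 to 169) and 114-fold (90.8 to 146) higher in vesicles and alone made up 11.1% of the ribosomal protein sum of the vesicle library labelled shNS. Rpl3, which reaches towards the peptidyl transferase centre, had 8, 61, 856 and 731 counts, and its ratio was 113 (58.7 to 270) under shNS and 12.5 (9.64 to 16.6) under shDis3l2. With its cell libraries at 8 and 61 counts, the order of the compartments was the same under both labels. Pseudogene copies of Rpl3 held 38, 163, 212 and 255 counts, more than the gene itself in both cell libraries.

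Rpl4 had 74, 240, 1303 and 1478 counts on its non-retained transcripts, a vesicle to cell ratio of 19.1 (15.1 to 24.5) and 6.43 (5.61 to 7.41). Rpl7 had 202, 151, 861 and 822 counts, a ratio of 4.63 (3.96 to 5.42) and 5.69 (4.78 to 6.82), and it was the most counted ribosomal protein gene of the cell library labelled shNS once snoRNA-overlapping transcripts were left out. On the protein-coding scale Rpl7 was not apart between compartments under either label.

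The stalk of the large subunit, which recruits translation factors, is made of Rplp0 with pairs of Rplp1 and Rplp2, and Rpsa is the small-subunit protein also known as the laminin receptor precursor. Rplp0 stood at 3.12, 6.93, 63.2 and 73.3 CPM, a vesicle to cell ratio of 20.2 (15.6 to 26.4) and 10.6 (8.78 to 12.7). Rplp1 stood at 6.99, 22.2, 36.5 and 50.3 CPM, a ratio of 5.23 (4.35 to 6.33) and 2.26 (2.01 to 2.55). The Rplp1 ratio on the protein-coding scale was 1.7 (1.41 to 2.05) under shNS and 0.658 (0.585 to 0.742) under shDis3l2, so its direction turned under that label. Rplp2 had 3, 6, 0 and 41 counts outside its retained-intron transcripts, too few for a call. Rpsa stood at 3.47, 4.46, 38.2 and 60.0 CPM, a ratio of 11 (8.53 to 14.2) and 13.5 (10.8 to 17.1). Pseudogene copies of Rpsa held 536, 996, 128 and 156 counts, against 69, 82, 695 and 1057 on the gene. In cells the copies thus held more counts than the gene, and the Rpsa ratio holds for the gene entry alone. Whether the copies contain a small RNA was not looked at. The stalk genes had unequal CPM in every library, but CPM is not scaled to transcript length and Rplp2 had few counts. Retained-intron transcripts of Rplp2, which were kept apart, held 77, 344, 40 and 120 counts.

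**Figure D3:**
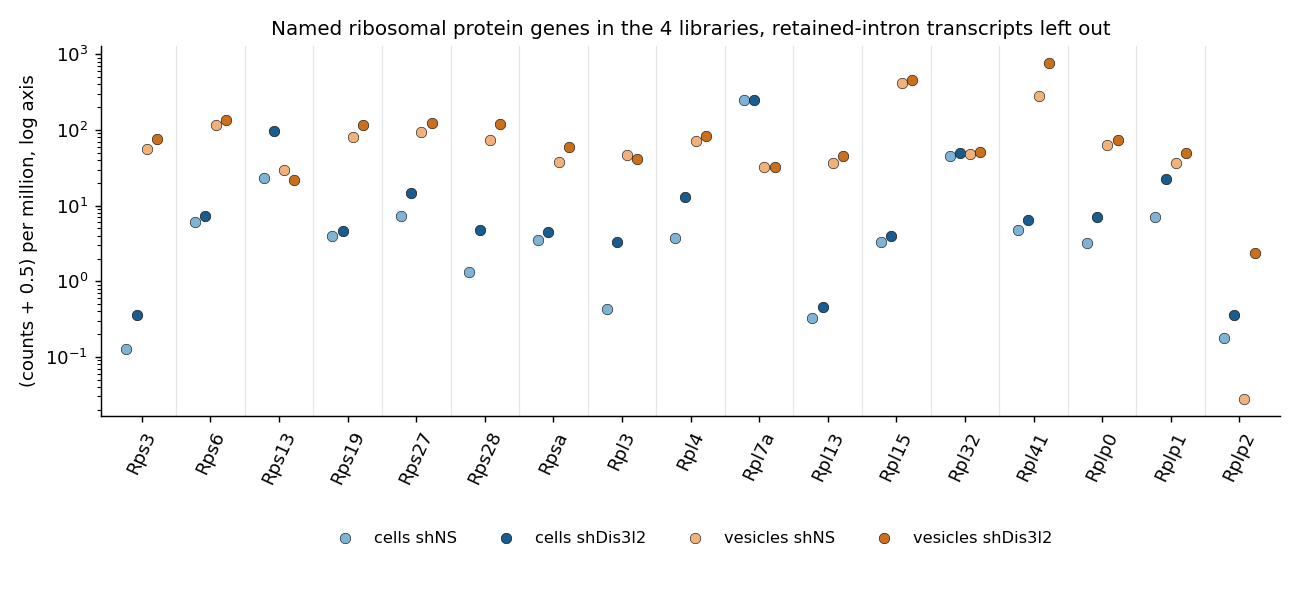
Levels of named ribosomal protein genes in the 4 libraries, as CPM after adding 0.5 counts, on a log axis, with retained-intron transcripts left out; each dot is 1 library. Orange dots (vesicles) lie above blue dots (cells) for most genes, while Rpl7a lies lower in vesicles and Rpl32 and Rps13 show no such gap.

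Apart from Rps2, the genes not called higher in vesicles (Rpl7a, Rps13 and Rpl32) were ones whose non-retained transcripts include one with a snoRNA. Rpl7a, a large-subunit protein, had 4976 and 4577 counts in cells and 587 and 572 in vesicles, 7.8-fold and 7.66-fold lower in vesicles, and it made up 51.8% and 36.7% of the ribosomal protein sum in cells. A processed transcript of 593 nt that contains the RefSeq snoRNA printed above held 4790, 3732, 128 and 103 of these counts. Without its snoRNA-overlapping transcripts Rpl7a had 21, 58, 391 and 450 counts and was 20.6-fold (13.0 to 33.0) and 8.11-fold (6.16 to 10.9) higher in vesicles.

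Rps13 had 464, 1773, 545 and 381 counts and was called lower in vesicles under shDis3l2, 4.45-fold. Its transcript of the nonsense-mediated decay type, which contains Snord14a, held 463, 1773, 109 and 15 of them, and the rest amounted to 1, 0, 436 and 366. Rpl32 had 882, 902, 880 and 911 counts, a vesicle to cell ratio of 1.08 (0.985 to 1.19) and 1.06 (0.962 to 1.16). Its 906-nt coding transcript that contains the H/ACA snoRNA Snora7a held 882, 898, 234 and 145 counts, while its 517-nt mRNA held 0, 4, 647 and 766. Against the floor of 3 counts in the cell library, the Rpl32 mRNA was at least 234-fold higher in vesicles labelled shNS, and the lower limit of the exact interval was 190-fold. Without snoRNA-overlapping transcripts, 77 of 78 genes under shNS and 81 of 81 under shDis3l2 were higher in vesicles and 0 lower, where 86.1% and 88.4% of protein-coding genes treated the same way were higher and 5.79% and 5.18% lower.

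The gene left out of that count under shNS was Rps2, at the mRNA entry of the small subunit, with 65, 43, 51 and 89 counts. Pseudogene copies of Rps2 held 51, 91, 2112 and 2316 counts, so in vesicles the copies held more counts than the gene. Rps26 was similar, with 0, 7, 15 and 10 counts on the gene and 31, 14, 661 and 828 on its copies. Rps18 had 5, 1, 1 and 1 counts and its copies 11, 8, 9 and 9, while its retained-intron transcripts held 32, 59, 260 and 414, so nearly all counts of this gene lay on transcripts that were kept apart. Over all genes, 1166 features were counted as copies (at least 90% identity over 80% of their length, or named as such), with 59.9, 102, 540.1 and 637 CPM, 9.02-fold (8.49 to 9.59) and 6.25-fold (5.95 to 6.57) higher in vesicles.

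Several of the 15 genes outside the core list are identical or nearly identical to their parents over the coding sequence. Untranslated regions were not compared. Rpl10-ps3 and Rpl10 differ at 0 of 645 coding bases and had 44, 53, 1016 and 975 counts against 9, 21, 53 and 104 for Rpl10. Rpl9-ps6 differs from Rpl9 at 1 of 579 coding bases and had 57, 57, 1126 and 1298 counts. Rps27rt differs from Rps27 at 0 of 255 coding bases and had 88, 57, 243 and 129 counts, and Rps12-ps3, identical to Rps12 over 399 coding bases, was at 0 in all 4 libraries. Values of these pairs are uncertain, since the assignment could split them. The 15 genes together held 14.2, 14.4, 185 and 207 CPM, 13.0-fold (11.6 to 14.8) higher in vesicles under shNS. Rpl36a-ps1, which differs from Rpl36a at 7 of 321 coding bases, had 4, 0, 165 and 204 counts, and against the floor of 3 counts it was at least 71.1-fold higher in vesicles under shDis3l2, with a lower limit of the exact interval of 57.3-fold.

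Between the cell libraries, ribosomal protein counts were higher in the one labelled shDis3l2. The sum without retained-intron transcripts was 487 and 677 CPM, a ratio of 1.39 (1.35 to 1.43), and without snoRNA overlap 168 and 287 CPM, a ratio of 1.71 (1.64 to 1.79). On the protein-coding scale these ratios were 1.17 (1.14 to 1.2) and 1.44 (1.38 to 1.5). The second was 1.34 (1.28 to 1.4) with snoRNA- and miRNA-overlapping transcripts left out of the scale as well. Of 34 genes with enough counts 11 were higher and 0 lower, where 14.9% and 5.36% of all 2650 genes tested, and 12.4% and 4.55% of protein-coding genes, were. On the protein-coding scale 7 were higher and 0 lower, where 9.03% and 9.41% of protein-coding genes were. Without snoRNA-overlapping transcripts, on the all-counts scale, 10 of 31 were higher and 0 lower, where 11.7% and 4.65% of protein-coding genes were. With no minimum, 77 of the 92 genes were higher and 13 lower, against 48.6% and 45.2% of protein-coding genes with any count.

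Rps13 had the largest of these ratios, 4.1 (3.7 to 4.55), all of it on its snoRNA-bearing transcript. Rps28 rose from 26 to 87 counts, 3.61-fold (2.29 to 5.79), Rpl4 from 74 to 240, 3.48-fold (2.67 to 4.58), and Rplp1 from 138 to 409, 3.18-fold (2.61 to 3.88). Rps7, a small-subunit protein that also binds Mdm2, had 29 and 89 counts, a ratio of 3.27 (2.14 to 5.19). Rplp0 with 62 and 128 counts was 2.22-fold (1.62 to 3.05) higher, and Rps27 with 142 and 267 was 2.01-fold (1.64 to 2.49) higher, though neither kept a 2-fold difference on the protein-coding scale. At the other end Rpl7, with 202 and 151 counts, had a ratio of 0.802 (0.645 to 0.994) and Rps27rt one of 0.695 (0.489 to 0.98), both short of the 2-fold rule. These libraries hold few counts on the mRNAs, 3314 and 5284 in all, and with 1 library a label the differences compare those libraries and not the hairpins.

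Between the vesicle libraries, the ribosomal protein sum was 3784 and 5048 CPM, a ratio of 1.33 (1.32 to 1.35) for shDis3l2 over shNS, and on the protein-coding scale it was 1.01 (0.996 to 1.02). The share of protein-coding counts was thus nearly the same under both labels. Of 81 genes with enough counts 4 were higher and 0 lower, where 10.5% and 2.79% of all 7767 genes tested, and 8.5% and 1.33% of protein-coding genes, were. On the protein-coding scale 2 were higher and 1 lower, where 4.48% and 3.75% of protein-coding genes were. With no minimum, 77 of 92 genes were higher on the all-counts scale and 13 lower, against 59.2% and 35.8% of protein-coding genes with any count. With protein-coding counts as the scale 30 were higher and 60 lower, against 38.9% and 56.1%, a split near that of protein-coding genes at large.

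The 4 genes were Rpl41, Rpl23a, Rpl10 and Rpl9-ps1, the first being the only one of high level. Rpl41 stood at 4.76 and 6.36 CPM in cells and at 283 and 775 CPM in vesicles, from 94, 117, 5150 and 13644 counts. It was 2.74-fold (2.65 to 2.83) higher in vesicles labelled shDis3l2 than in those labelled shNS, and 59.4-fold (48.5 to 73.7) and 122-fold (102 to 148) higher in vesicles than in cells. In the vesicle library labelled shDis3l2 it made up 15.3% of the ribosomal protein sum. Rpl23a had 0, 14, 32 and 87 counts, Rpl10 had 9, 21, 53 and 104, and Rpl9-ps1 had 3, 5, 60 and 151, with vesicle label ratios of 2.75 (1.85 to 4.35), 2.03 (1.44 to 2.88) and 2.62 (1.92 to 3.57).

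Rpl41 has the shortest coding sequence of these genes, 78 nt with 25 codons before the stop, and it is shown because a single fragment of a small-RNA library can span much of it. The gene lies at chr10:128548114-128549305 (GRCm38) on the minus strand, and 78.2% of its coding bases are A or G. Capitals mark the start and stop codons.
Rpl41 coding sequence: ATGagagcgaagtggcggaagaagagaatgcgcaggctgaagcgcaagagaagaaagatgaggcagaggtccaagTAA
The 437-nt Rpl41 transcript that contains it held 48, 39, 5081 and 13555 counts, so the excess in vesicles and the label difference there lay on this transcript. Where in the transcript the reads fell is not shown by counts per transcript.

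Other label ratios in vesicles did not pass the 2-fold rule. Rps2 had a label ratio of 1.82 (1.26 to 2.6) and Rps12 one of 1.81 (1.58 to 2.07). Rps28 had a ratio of 1.61 (1.51 to 1.73) and Rpsa one of 1.57 (1.43 to 1.73). Rps27rt had 243 and 129 counts, a ratio of 0.548 (0.439 to 0.682), and was the gene called lower on the protein-coding scale. Rpl15, the other leading gene of the vesicles, had a ratio of 1.08 (1.04 to 1.11), or 0.813 (0.788 to 0.839) on the protein-coding scale, and Rpl3 one of 0.883 (0.798 to 0.975). Rpl41 and Rpl15, close in rank, thus differed in their label ratio in vesicles by more than their counting intervals.

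**Figure D4:**
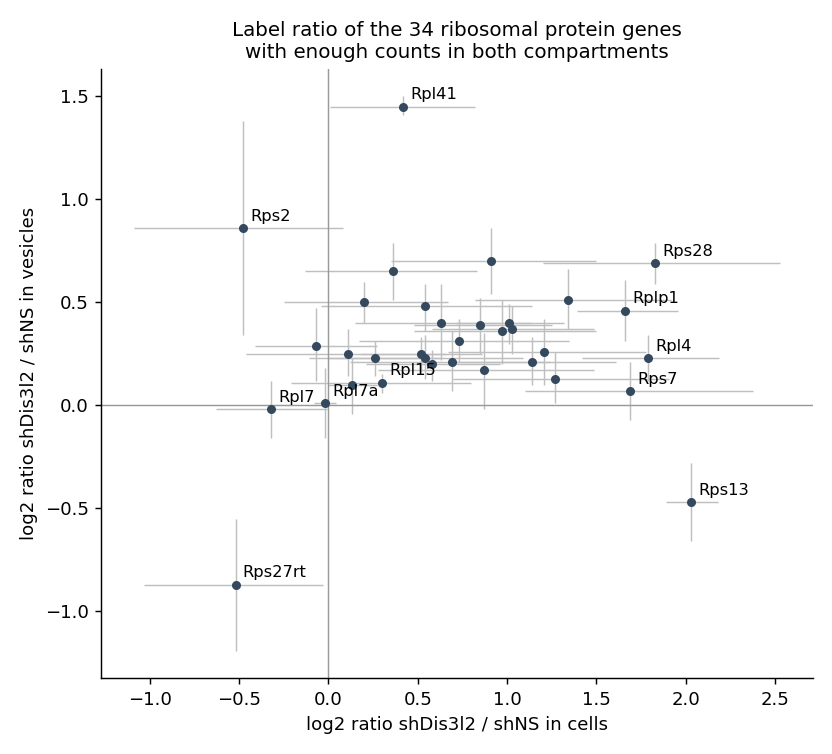
Log2 ratio of shDis3l2 over shNS in cells (horizontal) and in vesicles (vertical) for the 34 ribosomal protein genes with enough counts in both compartments; points are single ratios on the all-counts scale and bars are 95% intervals for counting error. Rps13 lies at 2.03 in cells and -0.47 in vesicles, and Rpl41 has the highest ratio in vesicles.

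Of the 34 genes with enough counts for the label ratio in both compartments, 26 had a smaller ratio in vesicles than in cells and 8 a larger one. The same split was not counted over all genes, so it does not set ribosomal protein genes apart from others. The difference between the ratios was not tested. Rps13 was the only one of the 34 whose intervals lay on opposite sides of no change, 2.03 (log2 ratio, 1.89 to 2.18) in cells and -0.47 (-0.66 to -0.28) in vesicles. Without the Snord14a-bearing transcript Rps13 had 1 and 0 counts in cells, so no ratio could be given there, and its ratio in vesicles was 0.866 (0.752 to 0.998).

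Other gene lists were compared on the protein-coding scale, without snoRNA-overlapping transcripts. The scale itself keeps transcripts with snoRNA or miRNA overlap. Those without it made up 80.7% and 86.7% of the scale in cells and 97.2% and 97.7% in vesicles, so these ratios are raised. Shares on a scale cleared of such overlap (the cleared scale) are given beside them. Translation factors and other mRNAs known for an oligopyrimidine tract were higher in vesicles in 15 of 17 genes under shNS and 13 of 18 under shDis3l2, with a summed ratio of 6.06 (5.74 to 6.42) and 3.27 (3.14 to 3.41). On the cleared scale they held 0.165% in cells and 0.833% in vesicles under shNS, and 0.248% and 0.72% under shDis3l2. Mitochondrial ribosomal proteins, the counterpart set that lacks such a tract, were higher in 6 of 14 and 7 of 16 genes tested of 78, with a summed ratio of 1.17 (1.1 to 1.25) and 1.15 (1.08 to 1.22). On the cleared scale the compartments were nearly level, 0.156% in cells and 0.152% in vesicles under shNS, and 0.139% and 0.141% under shDis3l2. Ribosome biogenesis factors were higher in 4 of 11 and 4 of 15 genes, with a summed ratio of 1.23 (1.12 to 1.34) and 1.49 (1.36 to 1.63). Their shares on the cleared scale were 0.0778% in cells and 0.0793% in vesicles under shNS, and 0.0642% and 0.0847% under shDis3l2. The cytoplasmic ribosomal protein genes were higher in 73 of 78 and 69 of 81, with 47.5% and 49.8% of protein-coding genes as the background. On the cleared scale 72 of 78 and 68 of 81 were higher, where 38% and 43.6% of protein-coding genes were. These counts are of genes with at least 100 counts over the 2 libraries, a minimum that many reached through vesicle counts. Under shNS it kept 78 of 92 cytoplasmic ribosomal protein genes but 14 of 78 mitochondrial ones. The counts thus compare members selected to unlike degrees, and for the other lists they were not made with no minimum. The summed ratios and shares use all members of a list. No list has a test, with 1 library per group.

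**Figure D5:**
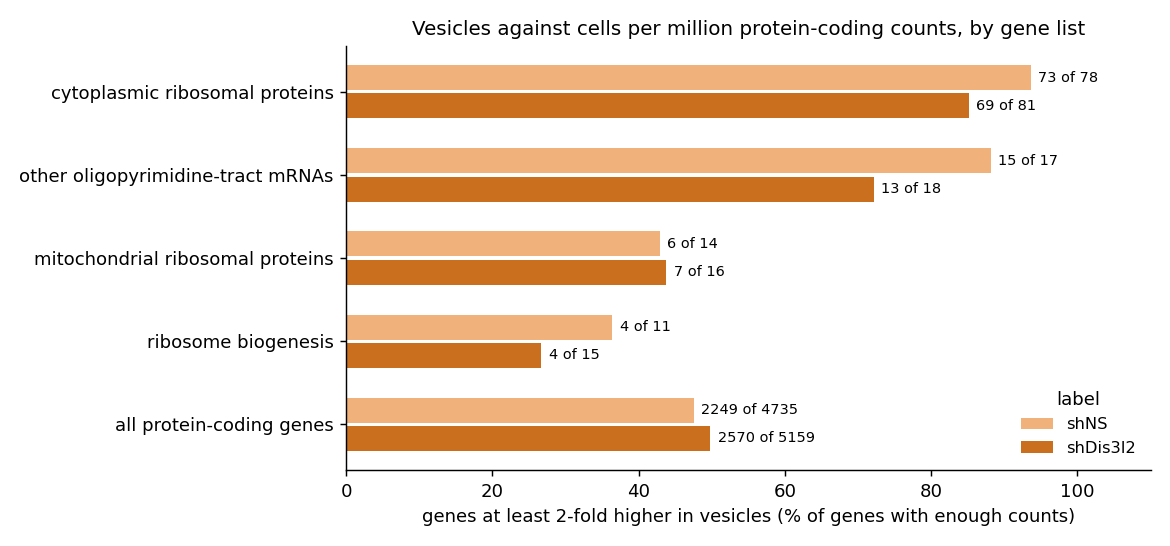
Percent of genes with enough counts that were at least 2-fold higher in vesicles than in cells, on the protein-coding scale and without snoRNA-overlapping transcripts, for 4 gene lists and all protein-coding genes under each label; the numbers beside the bars are genes higher of genes tested. Cytoplasmic ribosomal proteins stand at 73 of 78 and 69 of 81. The scale itself keeps transcripts with snoRNA or miRNA overlap, which raises all bars. The lists differ in how many of their genes had enough counts, and many genes had enough through their vesicle counts.

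A fixed string of pyrimidines, CTTTC, was looked for at the annotated starts as a partial stand-in for the oligopyrimidine tract. Other runs of C and T were not counted, so a gene without the string can still have a tract. RefSeq start windows (GRCm38.p6) of 30 bases, 15 before the start and 15 from it onwards, were found for 57 of the 77 core genes. The letters CTTTC were in 28.1% of these in the direction of the gene and in 5.26% on the opposite strand, against 4.76% and 4.21% of 27025 genes with an entry. Of the 10 genes with the highest levels per kb of transcript, 7 had a window. Rpl15 and Rps27 held CTTTC, in capitals below, and the other 5 (Rpl41, Rps28, Rps6, Rps19 and Rps3a1) did not. The Rps6 window nevertheless opens, from the start onwards, with a run of C and T only. Both windows with the letters and those of Rpl41, the highest gene, and Rps6 are shown: chr14:18270972-18271001, chr3:90213634-90213663, chr10:128549154-128549183 and chr4:86857353-86857382, all on the minus strand.
Rpl15: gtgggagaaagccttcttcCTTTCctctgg
Rps27: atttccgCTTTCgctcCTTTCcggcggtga
Rpl41: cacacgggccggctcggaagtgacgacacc
Rps6: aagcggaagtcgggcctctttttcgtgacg

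Within the core list the order of levels was nearly the same in both vesicle libraries and less alike between compartments. Over the 77 core genes, levels per kb without snoRNA-overlapping transcripts had a Spearman correlation of 0.973 between the vesicle libraries, 0.849 between the cell libraries and 0.563 to 0.608 between a cell and a vesicle library. The genes share library and depth, cells have far fewer counts, and no p is given. On that scale Rpl41 (9.84, 12.7, 646 and 1770 CPM per kb) and Rpl15 (2.96, 3.91, 468 and 501) led both vesicle libraries. Rps27a, Rps27 and Rps28 came next, in that order under shNS and in the reverse order under shDis3l2. The length of the most counted transcript, from 296 nt (Rpl35) to 5179 nt (Rps15a) with a median of 780 nt, had a correlation with CPM of 0.039 to 0.203 over the same genes.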

How the data were processed

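Small-RNA libraries of RAW264.7 cells and vesicles (1 library per group, 50-nt reads) were prepared with the QIAseq miRNA kit, per the labels' protocols. Adapters were removed with cutadapt and reads assigned with Salmon and Novoalign on GRCm38 (mm10), per the submitters' processing notes. The authors deposited estimated counts per transcript. The sources used here do not give whether reads were collapsed by molecular tag.

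Features were named from GENCODE M21. Counts were summed per gene without retained-intron transcripts and rounded. Pseudocount 0.5, minimum 100 counts over 2 libraries, 2-fold rule, exact (Clopper-Pearson) 95% intervals and a floor of 3 counts per library were used. PCR copies are not independent, so intervals and floors cover counting error only. Copies were found with BLAST 2.17.0. As an alternative, models with compartment and label as additive terms, which leave 1 residual degree of freedom, used edgeR 4.0.16 (quasi-likelihood, TMM) and DESeq2 1.42.0, with Benjamini-Hochberg adjusted p under 0.05. The rule and the fits were tested on simulated data. The members, lists and tests were chosen with earlier results of these data known. Genes are named by rule: the 10 with the highest mean level per kb, in each comparison up to 5 with the largest ratio in each direction whose interval excludes 1, and Rpsa, Rplp0, Rplp1 and Rplp2. Rps12, Rps18, Rps26 and Rps12-ps3, and the other genes outside the core list that are named beside their parents, were chosen after their values were seen. Some genes that the rule names are not reported here.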

Additional observations from a re-analysis of the deposited data

Results flagged for a closer look

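The label ratio of Rps13 went opposite ways in the compartments. It was 2.03 on the log2 scale in cells and -0.47 in vesicles, a difference of -2.5, and the difference was not tested, since each group is 1 library. Of the 1773 counts in the cell library labelled shDis3l2, 1773 lay on the transcript that contains Snord14a.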

How the results depend on the processing

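Each group is 1 library, so no replicate could be left out and none has a number that pairs it with another. Per the labels' protocols cells and medium were taken from the same cultures, and the additive fits below set the compartments against each other within a label. Summed ratios are log2 values on the all-counts scale unless another is named, in the order label in cells (0.48 as reported), label in vesicles (0.42), vesicles against cells under shNS (2.96) and under shDis3l2 (2.9). Scaled to protein-coding counts they were 0.23, 0.01, 1.33 and 1.12, with TMM factors 0.4, 0.13, 0.79 and 0.51, and with DESeq2 size factors 0.39, 0.14, 0.76 and 0.51. Scaled to protein-coding counts without the 5 most abundant genes they were 0.25, -0.04, 0.93 and 0.65, so the label ratio in vesicles reversed in sign. With retained-intron transcripts added they were 0.86, 0.39, 1.58 and 1.12. For the label in cells and the vesicle to cell ratios, protein-coding transcripts alone gave 0.69, 4.23 and 3.96, and leaving out snoRNA-overlapping transcripts (added after seeing the data) gave 0.77, 4.48 and 4.13. Without these and with a protein-coding scale cleared of snoRNA and miRNA overlap they were 0.42, 0.01, 2.59 and 2.18. Pseudogene copies gave 0.39 for the label in vesicles and 2.87 under shDis3l2, and leaving out Rpl41, the most abundant gene, gave 0.29, 2.86 and 2.67 for the last 3. TMM factors moved every log2 vesicle to cell ratio by -2.17 under shNS and by -2.39 under shDis3l2.

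Of the counts of genes, the 11 of 34 higher in cells labelled shDis3l2 (12.4% of protein-coding genes) became 7 of 34 on the protein-coding scale (9.03%), 28 of 78 with a minimum of 10 counts (11.8%), 24 of 58 with retained-intron transcripts (11.4%) and 4 of 31 without snoRNA-overlapping transcripts on the cleared scale (7.42%). The 4 of 81 higher in vesicles (8.5%) became 2 on the protein-coding scale (4.48%) and on the cleared scale (4.47%). The 0 lower there (1.33%) became 1 on those scales (3.75% and 3.88%), with TMM (2.75%) or DESeq2 factors (2.69%) and with a minimum of 10 (4.23%). Genes higher in vesicles than in cells, 74 of 78 under shNS and 78 of 81 under shDis3l2, were 65 and 55 with TMM or DESeq2 factors, where 29.7% and 29.1% of protein-coding genes were with TMM. Genes lower under shNS, 1 as reported (5.88%), were 4 with protein-coding (11.5%), TMM (16.2%) or DESeq2 scaling (16.4%), 2 with retained-intron transcripts (6.78%) and 0 without snoRNA overlap (5.79%). Under shDis3l2, 2 as reported (5.32%), they were 3 on the protein-coding scale (10.7%), 6 with TMM or DESeq2 factors (15.2%), 7 with retained-intron transcripts (6.11%) and 0 without snoRNA overlap on the all-counts (5.18%) or the cleared scale (11.4%). The cause was not tested beyond what each setting leaves out.

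On the all-counts scale, ribosomal protein genes apart between compartments under both labels numbered 74 higher and 1 lower. The share of all genes apart under both labels was not counted. For each label alone, 85.8% (shNS) and 88.1% (shDis3l2) of protein-coding genes were higher, and 5.88% and 5.32% lower. The additive fits use TMM or DESeq2 scaling, so their counts and shares are not on the same footing as these. Their minimum was 100 counts over the 4 libraries, which most ribosomal protein genes reached through vesicle counts, and their shares are of genes of all types. The additive fits called 48 higher by edgeR and 48 by DESeq2 of 81, where 12.7% and 10.6% of all 9771 genes were, and 4 and 3 lower, where 19.7% and 17.9% were. With 1 library per group the fits assume that the compartments share one label effect. Depth limits single genes in cells, where 10 and 15 of 92 reach 100 counts.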
